A study of Mus musculus with 12 samples.

Results

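A set of 6 human genes that handle superoxide, hydrogen peroxide and lipid peroxides was followed in pancreatic tumors grown in mice, with and without arsenic trioxide (ATO): the superoxide dismutase SOD1 (ENSG00000142168), the catalase CAT (ENSG00000121691), and the glutathione peroxidases GPX1 (ENSG00000233276), GPX2 (ENSG00000176153), GPX3 (ENSG00000211445) and GPX4 (ENSG00000167468). They were chosen by identifier, and all 6 were present among the 26820 genes of the AsPC-1 table and the 27457 genes of the BxPC-3 table, out of 30832 genes in all. AsPC-1 and BxPC-3 are established human lines of pancreatic ductal adenocarcinoma, and the tumors grew from cells placed in the mouse pancreas. The 12 libraries fell into 4 groups of 3, which were AsPC-1 tumors under ATO, AsPC-1 control tumors, BxPC-3 tumors under ATO and BxPC-3 control tumors. The labels call the genotype WT in every group. Strain and age of the mice, the amount and timing of ATO and the treatment of control mice are not stated in the labels. Since the labels do not say whether each replicate is its own animal, a p-value here reflects only how far these libraries spread, and that spread may be technical.

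These enzymes act on superoxide, hydrogen peroxide and lipid peroxides. Superoxide dismutase 1, a copper and zinc enzyme found mostly in the cytosol, turns superoxide into hydrogen peroxide. Catalase in the peroxisome breaks hydrogen peroxide down to water and oxygen, and the glutathione peroxidases reduce peroxides at the expense of reduced glutathione. The human proteins GPX1 to GPX4 carry selenocysteine in the active site. GPX4 is the member that reduces lipid hydroperoxides within membranes, and its loss leads to ferroptosis, an iron-dependent death by lipid peroxidation. ATO is an arsenic compound used against acute promyelocytic leukemia, and the series title ties it to ferroptosis and to resistance through a glutathione transferase.

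The values were FPKM, reads of a gene scaled by gene length and by a constant of the library. Recovered reads summed to between 11219577 and 19306888 per library. The profile of the library labelled BxPC-3 control 3 was that of the other line: across 16745 genes its log2(FPKM + 1) values correlated at r = 0.946 to 0.973 with the AsPC-1 libraries and at r = 0.691 to 0.722 with the other BxPC-3 libraries. It was left out of the tests, which leaves 11 libraries, and its values are given apart. Identifiers are not paired with names in the files, so markers of other cell types and other antioxidant genes were not analysed here. The sources used here do not give whether reads of the mouse host were removed, and their part in these levels was not tested. In bulk tumors, fewer cells of a type and less RNA per cell cannot be told apart.

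The lines differed in 4 of the 5 genes tested, beside 60.0% of all genes tested under ATO and 45.3% in control tumors, and GPX2 differed most of the 5. GPX2 was lower in AsPC-1 than in BxPC-3 tumors, 9.49-fold under ATO and 6.11-fold in control tumors by the ratio of mean FPKM. CAT was lower in AsPC-1 as well, while SOD1 and GPX4 were higher there. GPX1 showed overlapping FPKM levels in the lines, and GPX3 stayed under 1 FPKM in every library. On the deposited values, ATO against control gave no limma adjusted p under 0.05 for any of the 6 genes in either line.

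**Figure D1:**
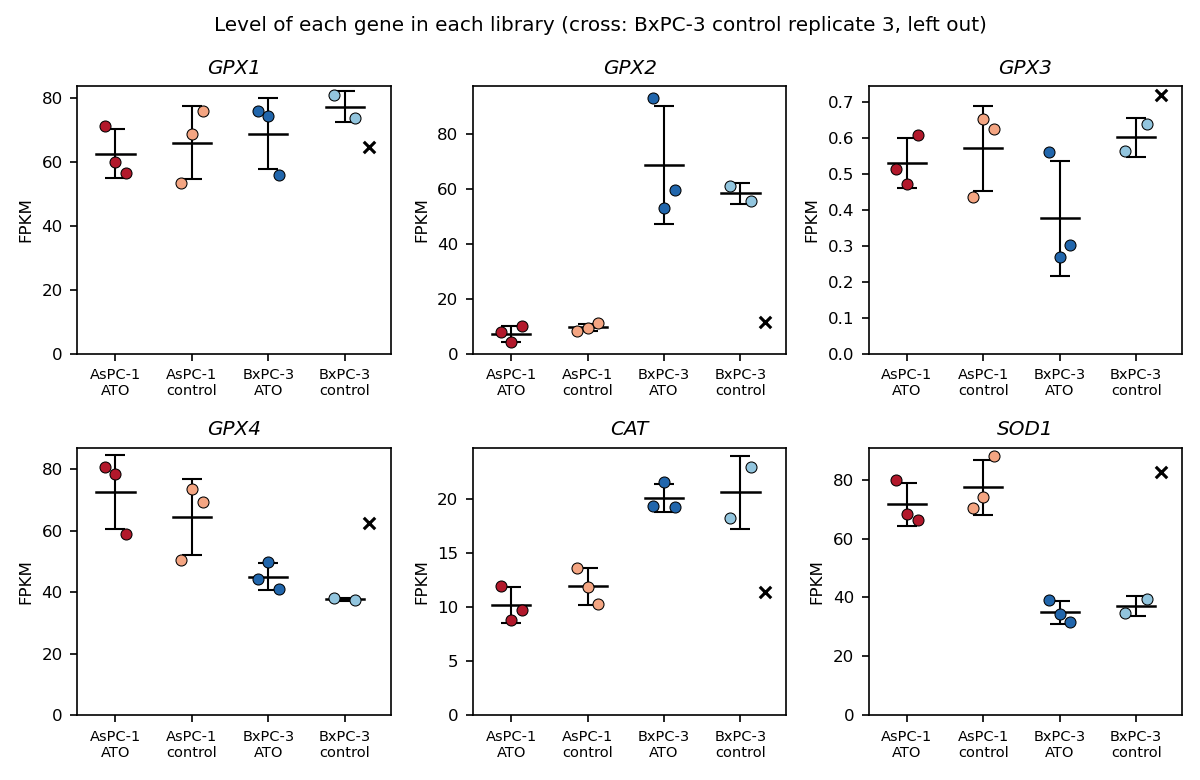
FPKM of each gene in each library, by group, with the group mean and SD as bars. GPX2 lies at 4.09 to 11.1 FPKM in AsPC-1 and at 53.0 to 93.0 FPKM in the 5 BxPC-3 libraries kept, and BxPC-3 control replicate 3, the cross, lies at 11.6 FPKM.

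GPX2 is the glutathione peroxidase of the gastrointestinal epithelium. In AsPC-1 tumors its level was 7.68, 4.09 and 9.91 FPKM in ATO replicates 1 to 3 and 8.37, 9.18 and 11.1 FPKM in control replicates 1 to 3. In BxPC-3 tumors its level was 93.0, 53.0 and 59.7 FPKM in ATO replicates 1 to 3 and 61.0 and 55.6 FPKM in control replicates 1 and 2. Every AsPC-1 library lay below every one of these BxPC-3 libraries, under ATO and in control tumors alike. The reads behind these levels were 78 to 246 per AsPC-1 library and 1682 to 3219 per BxPC-3 library. Within a library, GPX2 exceeded 61.7% to 85.4% of the 23445 genes in both tables in AsPC-1 and 98.3% to 99.3% of them in BxPC-3. The gene thus ranked among the most abundant transcripts in BxPC-3 tumors and in the middle to upper range in AsPC-1 tumors.

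SOD1 is a source of the hydrogen peroxide that catalase and the peroxidases remove. In AsPC-1 tumors SOD1 stood at 80.0, 68.4 and 66.4 FPKM in the ATO replicates and at 70.3, 74.1 and 88.1 FPKM in the control replicates. In BxPC-3 tumors it stood at 39.0, 34.3 and 31.5 FPKM in the ATO replicates and at 34.6 and 39.4 FPKM in control replicates 1 and 2. The lines did not overlap, and the mean FPKM in AsPC-1 was 2.05-fold that in BxPC-3 under ATO and 2.10-fold in control tumors. These folds carry the scaling of each table. In CPM, reads scaled by the recovered sum of the library, the means under ATO were closer. They were 130 in AsPC-1 and 93.9 in BxPC-3, and in control tumors 178 and 93.1. Processed pseudogenes of SOD1 and GPX1 are known, and the counting of reads shared with them is not given in the sources used here.

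CAT went the other way between the lines. AsPC-1 tumors had 12.0, 8.77 and 9.76 FPKM of CAT under ATO and 13.6, 11.8 and 10.2 FPKM in control tumors. BxPC-3 tumors had 19.4, 21.6 and 19.3 FPKM under ATO and 18.2 and 23.0 FPKM in control replicates 1 and 2. All AsPC-1 values fell below all of these BxPC-3 values. By the ratio of mean FPKM, CAT was 1.97-fold lower in AsPC-1 under ATO and 1.73-fold lower in control tumors. Its mean CPM was 30.7 in AsPC-1 and 89.9 in BxPC-3 under ATO, and 45.5 and 86.3 in control tumors. SOD1, which makes hydrogen peroxide, and CAT, which removes it, therefore differed between the lines in opposite directions.

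GPX4, the enzyme of membrane lipid hydroperoxides, stood higher in AsPC-1. It was at 80.7, 78.4 and 58.8 FPKM in AsPC-1 ATO libraries and at 50.4, 73.4 and 69.5 FPKM in AsPC-1 control libraries. In BxPC-3 it was at 44.3, 49.9 and 41.0 FPKM in ATO libraries and at 38.0 and 37.4 FPKM in control replicates 1 and 2. The lowest AsPC-1 value, 50.4 FPKM, was close to the highest BxPC-3 value, 49.9 FPKM, so the gap between the lines was narrow. The mean FPKM differed 1.61-fold under ATO and 1.71-fold in control tumors, with AsPC-1 above BxPC-3 in each. These folds carry the scaling of each table. In CPM the means under ATO were 131 in AsPC-1 and 122 in BxPC-3. The ranges there overlapped, at 106 to 155 CPM and 113 to 139 CPM. In control tumors the means were 148 and 94.6 CPM.

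GPX1, the abundant cytosolic glutathione peroxidase, did not separate the lines on the deposited scale. AsPC-1 tumors had 71.2, 60.1 and 56.7 FPKM under ATO and 53.5, 68.8 and 75.8 FPKM in control tumors. BxPC-3 tumors had 76.0, 74.5 and 55.9 FPKM under ATO and 80.9 and 73.8 FPKM in control replicates 1 and 2. In FPKM the ranges overlapped both under ATO and in control tumors. In CPM they were apart, with AsPC-1 lower. Under ATO they were 72.1 to 96.7 CPM in AsPC-1 and 110 to 147 CPM in BxPC-3. In control tumors they were 88.7 to 122 CPM in AsPC-1 and 137 and 138 CPM in BxPC-3. How often genes are apart between the lines in CPM was not computed. No fit called GPX1 between the lines.

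GPX3, the secreted peroxidase of plasma, was at the low end of the tables. It had 0.514, 0.472 and 0.609 FPKM in AsPC-1 ATO libraries and 0.436, 0.654 and 0.625 FPKM in AsPC-1 control libraries. In BxPC-3 it had 0.561, 0.269 and 0.303 FPKM under ATO and 0.564 and 0.641 FPKM in control replicates 1 and 2. Its 18 to 51 reads per library among those kept placed it above 23.6% to 34.2% of the 23445 genes in both tables. With no library at 1 FPKM it fell under the filter of at least 1 FPKM in 3 libraries, so 5 of the 6 genes were tested and GPX3 was tested only where that filter was lifted or reads were used.

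The lines were then compared gene by gene, in limma on log2(FPKM + 1) with Benjamini-Hochberg adjustment over all genes tested. Under ATO, 4 of the 5 tested genes passed an adjusted p of 0.05, beside 60.0% of the 16600 genes tested. SOD1 and GPX4 were among the 35.2% of genes higher in AsPC-1, and GPX2 and CAT among the 24.8% lower in AsPC-1. In control tumors the same 4 passed in the same directions, beside 45.3% of all genes tested, with 23.5% of all genes higher and 21.8% lower in AsPC-1. A large share of all genes was thus called in each comparison, and the members are better described by the size of their differences than by the calls. By absolute log2 fold change, GPX2 exceeded 98.0% of the tested genes under ATO and 96.8% in control tumors. The other 3 called genes exceeded 51.3% to 69.9% of the tested genes under ATO and 64.6% to 78.5% in control tumors, and GPX1 exceeded 10.8% and 24.5%.

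Under ATO the log2 fold change of AsPC-1 over BxPC-3 was -3.11 for GPX2 (SE 0.28, limma adjusted p = 5.32e-06). It was 1.02 for SOD1 (SE 0.14, limma adjusted p = 0.000126) and 0.67 for GPX4 (SE 0.18, limma adjusted p = 0.00722). For CAT it was -0.92 (SE 0.15, limma adjusted p = 0.000432). GPX1 did not pass, at -0.13 with a 95% interval of -0.51 to 0.26 (limma adjusted p = 0.550). In control tumors the log2 fold change was -2.50 for GPX2 (SE 0.31, limma adjusted p = 8.73e-05), 1.04 for SOD1 (SE 0.16, 0.000353), 0.74 for GPX4 (SE 0.20, 0.0105) and -0.74 for CAT (SE 0.17, 0.00486). GPX1 stood at -0.24 with a 95% interval of -0.67 to 0.19 (limma adjusted p = 0.345). Each of the 4 genes thus differed in the same direction under ATO and without it. Both comparisons come from 1 model of 11 libraries, and each uses its own libraries for the means.

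**Figure D2:**
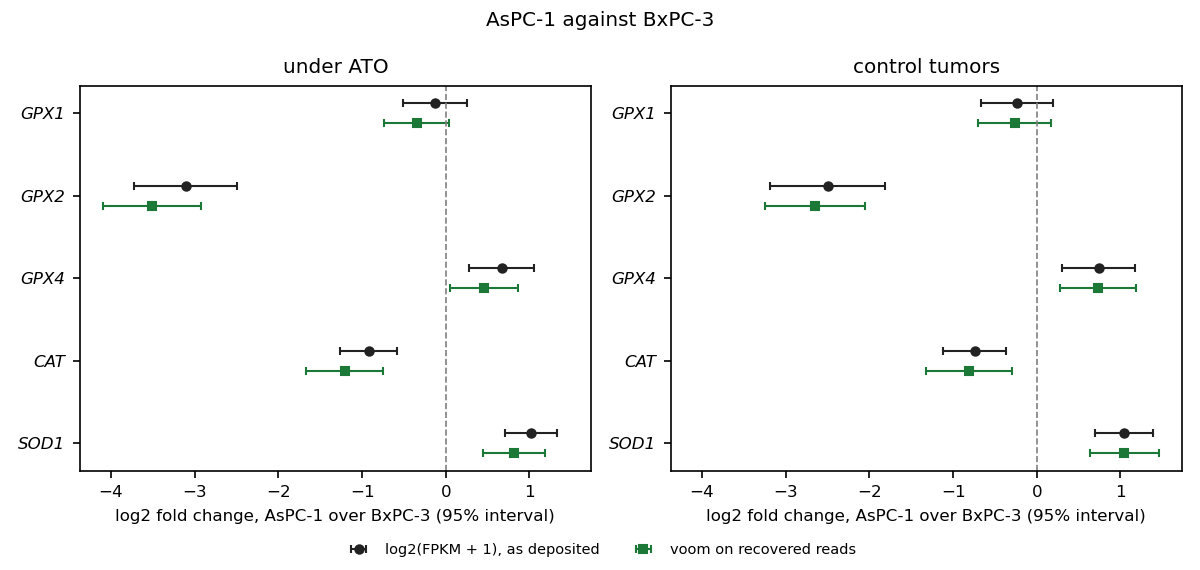
Log2 fold change of AsPC-1 over BxPC-3 with its 95% interval, under ATO on the left and in control tumors on the right, from deposited values and from recovered reads. GPX2 lies at -3.11 and -2.50 on the deposited scale, SOD1 and GPX4 lie above 0, CAT lies below 0, and the intervals of GPX1 cross 0.

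The tables of the lines may have been scaled separately, so levels set across them depend on the constants. The median log2 fold change of AsPC-1 over BxPC-3 under ATO was 0.17 over the genes tested on the deposited scale and -0.048 on recovered reads with common size factors. Before these medians were subtracted, the sizes moved between the scales. GPX4 stood at 0.67 and 0.46, SOD1 at 1.02 and 0.82, and CAT at -0.92 and -1.21. GPX1 stood at -0.13 and -0.35, and GPX2 at -3.11 and -3.51. Relative to these medians, GPX2 stood at -3.28 and -3.46, CAT at -1.10 and -1.16, GPX4 at 0.49 and 0.51, and SOD1 at 0.84 and 0.87. Both scales hold the same reads, and subtracting the median takes out a shift common to all genes. Likeness after that step is therefore no separate check of the levels. On recovered reads, voom with limma called the same 4 genes under ATO, beside 63.2% of 17319 genes, and in control tumors, beside 50.7%. The split of all calls did move with the scale under ATO, with 5848 genes higher and 4110 lower in AsPC-1 on deposited values and 5236 higher and 5701 lower on recovered reads. GPX4 lay nearest to the threshold, at an adjusted p of 0.0474 in voom under ATO, and in control tumors it missed the threshold after quantile normalization (0.48, limma adjusted p = 0.0573).

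With the library labelled BxPC-3 control 3 put back, limma called none of the 5 genes and 0 of 16745 in all between the lines in control tumors, and voom called 0 of 17450. Unadjusted, 4960 genes in limma, 2 members among them, and 5291 genes in voom, 3 members among them, had p under 0.05. The log2 fold changes were then -1.76 for GPX2, 0.66 for SOD1, 0.50 for GPX4 and -0.48 for CAT, with limma adjusted p from 0.110 to 0.186. In that library GPX2 was at 11.6, SOD1 at 82.5, GPX4 at 62.5, CAT at 11.4, GPX1 at 64.6 and GPX3 at 0.721 FPKM. Its GPX2 level was just above the AsPC-1 range, and its SOD1, GPX4 and CAT levels were within that range. Under ATO all 4 genes still passed in limma with this library in the model, and in voom GPX4 did not (0.45, adjusted p = 0.113). The control comparison also rests on few BxPC-3 libraries: without control replicate 1, GPX4 missed the threshold (0.75, limma adjusted p = 0.0556), and without control replicate 2, GPX4 (0.73, 0.0618) and CAT (-0.58, 0.0680) did. GPX2 and SOD1 passed in both of those fits. Under ATO all 4 genes passed whichever single library was left out.

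ATO was compared with control within each line. In AsPC-1 tumors none of the 5 tested members reached the threshold of 0.05 in limma, beside 0% of the 15287 genes tested, and none of the 5 had an unadjusted p under 0.05, beside 3210 genes. By voom, 19 of 15726 genes reached it, and the unadjusted p was under 0.05 for 3797. GPX2 was among the 3797 (log2 fold change -0.68, unadjusted p = 0.0453, adjusted p = 0.199) and none of the 6 genes was among the 19. With a replicate block, limma called 1193 of 15287 genes and no member. Voom with the block, a fit added after the data were seen, called 3432 of 15726 genes. GPX2 was the 1 member among these (-0.64, voom adjusted p = 0.0466). Whether the replicate numbers pair the libraries was not settled. Mean GPX2 was 7.23 ± 2.94 FPKM in ATO tumors and 9.54 ± 1.39 FPKM in control tumors (SD, n = 3 each). ATO replicate 2, at 4.09 FPKM, was the lowest of the 6 libraries, and the groups overlapped in FPKM.

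On the deposited scale the AsPC-1 log2 fold changes of ATO over control were -0.42 for GPX2 (SE 0.28, limma adjusted p = 0.379) and -0.21 for CAT (SE 0.18, 0.484). They were -0.11 for SOD1 (SE 0.17, 0.700), -0.07 for GPX1 (SE 0.19, 0.842) and 0.18 for GPX4 (SE 0.21, 0.622). The median over all genes tested was 0.12 here and -0.041 on recovered reads, so the sign of small changes depends on the scale. Relative to the median of each scale, GPX2 was at -0.54 and -0.63, CAT at -0.33 and -0.38, SOD1 at -0.23 and -0.27, GPX1 at -0.19 and -0.22, and GPX4 at 0.053 and 0.023. Before that step GPX4 changed sign on recovered reads (-0.018) and GPX1 after quantile normalization (0.034). Single libraries moved these values: GPX2 was at -0.11 without ATO replicate 2 and at -0.66 without ATO replicate 3, and over the fits that left out each library CAT ran from -0.32 to -0.11, SOD1 from -0.19 to -0.015 and GPX4 from 0.011 to 0.32. For GPX4 the 95% interval of the change ran from -0.31 to 0.66, so a fall or a rise within these bounds could not be told from no change.

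On the deposited scale none of the 6 genes had AsPC-1 groups that did not overlap. Of the 26820 genes in the table, 20.4% had fully separated ATO and control libraries on that scale. In CPM, reads scaled by the recovered sum of the library, GPX2, CAT and SOD1 were apart and lower in ATO tumors. GPX2 was at 5.18 to 13.2 CPM in ATO tumors and 14.5 to 18.7 CPM in control tumors. CAT was at 24.8 to 38.1 CPM and 38.7 to 52.9 CPM, and SOD1 at 117 to 153 CPM and 164 to 201 CPM. GPX1, GPX3 and GPX4 overlapped in CPM. How often genes are apart in CPM was not computed, so these separations have no share of all genes beside them. CPM is scaled by the sum of reads and voom by size factors. In voom without a block, CAT (-0.42, adjusted p = 0.269) and SOD1 (-0.31, adjusted p = 0.345) did not pass, nor did GPX2. GPX4 averaged 72.7 ± 12.0 FPKM in ATO tumors and 64.4 ± 12.3 FPKM in control tumors, and CAT 10.2 ± 1.65 FPKM in ATO tumors and 11.9 ± 1.70 FPKM in control tumors. SOD1 averaged 71.6 ± 7.34 FPKM in ATO tumors and 77.5 ± 9.40 FPKM in control tumors, and GPX1 62.6 ± 7.56 FPKM in ATO tumors and 66.1 ± 11.4 FPKM in control tumors (SD, n = 3 each). The difference was smaller than the SD of each group for GPX4, SOD1 and GPX1, and about as large as that SD for CAT. GPX3, tested without the filter, had a log2 fold change of -0.035 on the deposited scale (limma adjusted p = 0.905) and of -0.29 with voom (adjusted p = 0.598).

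In BxPC-3 tumors none of the 5 tested genes passed between ATO and control in limma, beside 0% of the 14633 genes tested. None of the 5 had an unadjusted p under 0.05, beside 758 genes, and voom called 0 of 16214 genes, 917 of which had an unadjusted p under 0.05. On the deposited scale GPX4 and GPX3 had groups that did not overlap, 2 of the 6 genes, beside 20.2% of the 27457 genes in the table. The list moved with the scale. In CPM GPX4 was apart as well, at 113 to 139 under ATO and 90.8 and 98.4 in controls. GPX3 overlapped in CPM, at 1.17 to 2.24 and at 2.11 and 2.64. GPX2 was narrowly apart in CPM, at 109.3 to 175.9 under ATO and 108.3 and 108.6 in controls. The share of all genes apart in CPM was not computed. GPX4 averaged 45.1 ± 4.51 FPKM in the 3 ATO libraries and 37.7 ± 0.427 FPKM in 2 control libraries, and ATO over control gave a log2 fold change of 0.25 (SE 0.14, 95% interval -0.097 to 0.59, limma adjusted p = 0.883). GPX3 averaged 0.378 ± 0.160 FPKM in ATO and 0.602 ± 0.0542 FPKM in control libraries, but ATO replicate 1, at 0.561 FPKM, lay next to the lower control, at 0.564 FPKM. On reads its log2 fold change was -0.74 (voom adjusted p = 0.852).

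GPX2 varied widely among the BxPC-3 ATO libraries. ATO replicate 1, at 93.0 FPKM, lay above all others, while ATO replicate 2, at 53.0 FPKM, lay below both controls and ATO replicate 3, at 59.7 FPKM, lay between them. The log2 fold change of GPX2 came to 0.19 (SE 0.26, limma adjusted p = 0.910), and to -0.050 without ATO replicate 1. The remaining log2 fold changes were -0.18 for GPX1 (SE 0.18, limma adjusted p = 0.898), -0.083 for SOD1 (SE 0.15, 0.930) and -0.030 for CAT (SE 0.15, 0.977). With the library labelled BxPC-3 control 3 put back, none of the 5 genes passed, and the counts over all genes were 0 of 15135 in limma, 507 of them at unadjusted p under 0.05, and 0 of 16456 in voom, 431 of them so.

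**Figure D3:**
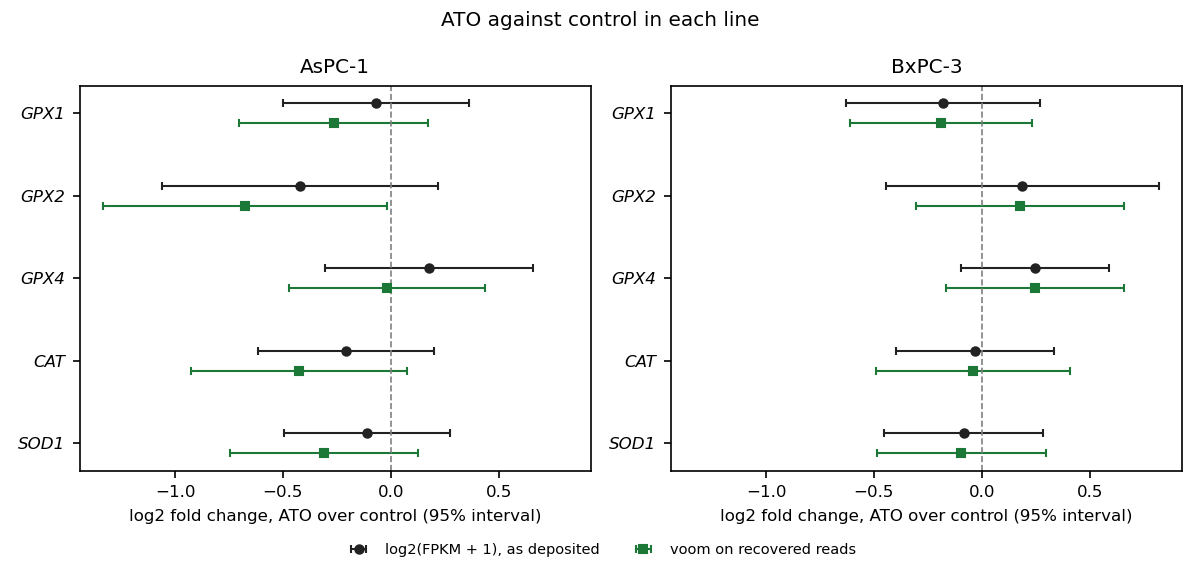
Log2 fold change of ATO over control with its 95% interval in AsPC-1 on the left and in BxPC-3 on the right, from deposited values and from recovered reads. On the deposited scale every interval crosses 0, and on recovered reads that of GPX2 in AsPC-1, at -0.68, does not.

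Whether the response to ATO differed between the lines was tested with the interaction term of the model. None of the 5 genes passed, beside 0% of 16600 genes tested, and none had an unadjusted p under 0.05, beside 2577 genes. GPX2, with a negative log2 fold change in AsPC-1 and a positive one in BxPC-3, had the largest term of the 5, -0.61 (SE 0.42, 95% interval -1.53 to 0.31, limma adjusted p = 0.470). It was -0.30 without AsPC-1 ATO replicate 2, -0.37 without BxPC-3 ATO replicate 1 and -0.85 without AsPC-1 ATO replicate 3. On recovered reads that term was -0.86 (unadjusted p = 0.0446, voom adjusted p = 0.303), where voom called 0 of 17319 genes, of which 2802 lay under an unadjusted p of 0.05. The terms of CAT, GPX4, SOD1 and GPX1 were -0.18, -0.072, -0.027 and 0.11, with limma adjusted p from 0.695 to 0.958. Those of GPX4 and SOD1 turned positive after quantile normalization (0.0061 and 0.057), and that of GPX1 turned negative on recovered reads (-0.086). With the library labelled BxPC-3 control 3 in the model, limma called 0 of 16745 genes, and the 2575 genes at unadjusted p under 0.05 included none of the 5.

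FPKM is scaled by gene length, so levels of different genes can be ranked within a library. In AsPC-1 the order of group means under ATO was GPX4, SOD1, GPX1, CAT, GPX2 and GPX3, and in AsPC-1 control tumors it was SOD1, GPX1, GPX4, CAT, GPX2 and GPX3. The ranges of the first 3 genes overlapped from neighbor to neighbor in each group, as did those of CAT and GPX2, and the steps from the first 3 to CAT and from GPX2 to GPX3 did not. In BxPC-3 the order was GPX1, GPX2, GPX4, SOD1, CAT and GPX3 both under ATO and in control tumors. There the ranges of GPX1 and GPX2 overlapped under ATO, those of GPX4 and SOD1 overlapped in control tumors, and the other neighbors were apart. Library by library, GPX2 was the highest of the 6 genes in BxPC-3 ATO replicates 1 and 3 and stood second to GPX1 in the other 3 BxPC-3 libraries kept. In AsPC-1 it was below CAT except in replicate 3 of each group, where it was above CAT. GPX3 was last in every library.

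The makeup of the glutathione peroxidase transcripts followed from this. The summed level of GPX1 to GPX4 was 113 to 160 FPKM in AsPC-1 and 157 to 214 FPKM in BxPC-3. Of this sum GPX2 held 6.0% ± 1.89 in AsPC-1 (SD, n = 6) and 35.7% ± 5.26 in BxPC-3 (SD, n = 5). GPX4 held 48.2% ± 3.98 in AsPC-1 and 23.7% ± 3.29 in BxPC-3. The share of GPX1 was close between the lines, at 45.4% ± 2.26 in AsPC-1 and 40.4% ± 4.52 in BxPC-3, and that of GPX3 was 0.392% in AsPC-1 and 0.260% in BxPC-3. The sum in AsPC-1 was therefore made of GPX1 and GPX4 in near equal parts, and in BxPC-3 mainly of GPX1 and GPX2.

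**Figure D4:**
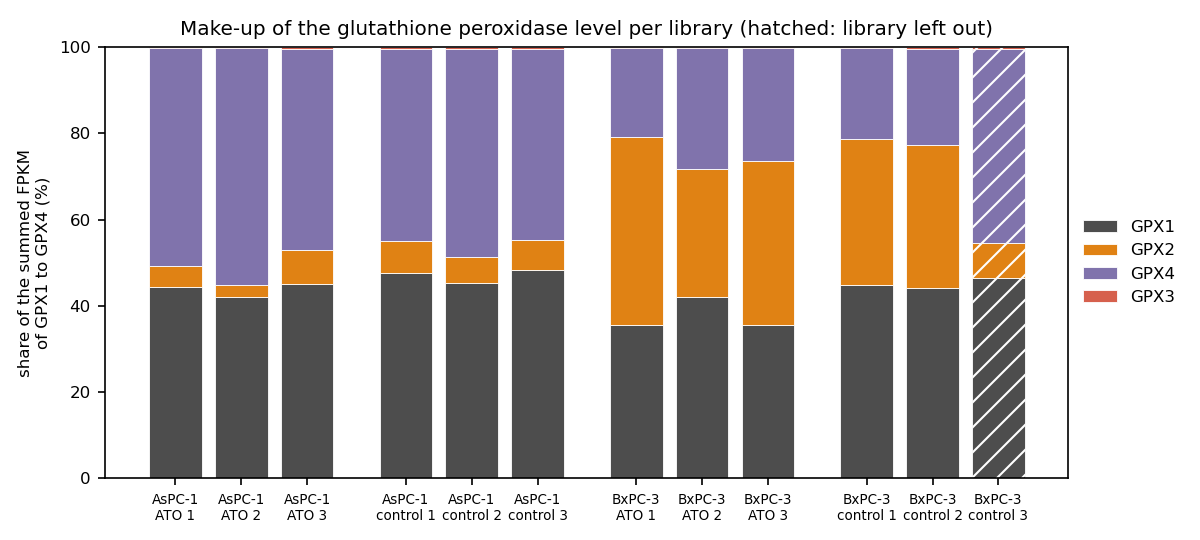
Share of each glutathione peroxidase in the summed FPKM of GPX1 to GPX4, in percent, for each library, ATO before control in each line. GPX2 takes 2.86% to 7.86% in the AsPC-1 bars and 29.8% to 43.5% in the 5 BxPC-3 bars kept, and the hatched bar is BxPC-3 control replicate 3.

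The shares were also compared between ATO and control, with no test, since they were chosen after their values were seen and the shares of a library sum to a whole. GPX1 held 43.8% ± 1.60 in AsPC-1 ATO tumors, from 41.99% to 44.99%, and 47.0% ± 1.58 in AsPC-1 control tumors, from 45.25% to 48.30% (SD, n = 3 each), so the groups did not overlap. GPX4 held 50.6% ± 4.09 in ATO tumors and 45.7% ± 2.21 in control tumors of that line, and GPX2 held 5.17% ± 2.52 in ATO tumors and 6.84% ± 0.717 in control tumors (SD, n = 3 each). In BxPC-3, GPX1 held 37.7% ± 3.66 of the sum in ATO tumors (SD, n = 3) and 44.5% ± 0.515 in control tumors (SD, n = 2). These 3 ATO libraries held 35.5% to 41.9% and the control pair 44.1% and 44.8%, again without overlap. The share of GPX3 in BxPC-3 was 0.151% to 0.263% in ATO tumors and 0.313% and 0.383% in control tumors, also apart. The shares of GPX2 and GPX4 overlapped between ATO and control in both lines, as did that of GPX3 in AsPC-1. The levels of 20.4% of all genes in AsPC-1 and 20.2% in BxPC-3 were apart between ATO and control. Levels carry the scaling of a library and shares do not, and how often shares come apart was not computed.

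A ratio of 2 genes within a library does not depend on how the library was scaled, and the ratios below were chosen after their values were seen and carry no test. SOD1 over CAT was 5.15 to 8.60 in AsPC-1 libraries and 1.59 to 2.01 in BxPC-3 libraries. SOD1 over GPX1 was 1.08 to 1.31 in AsPC-1 and 0.427 to 0.562 in BxPC-3. GPX2 over GPX1 was 0.0680 to 0.175 in AsPC-1 and 0.711 to 1.22 in BxPC-3. In each ratio the lines were apart, as they were in the FPKM levels of SOD1, CAT and GPX2 but not of GPX1. The library labelled BxPC-3 control 3 had 7.27, 1.28 and 0.180 in these ratios.

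In the BxPC-3 libraries kept, the ratio of GPX4 to GPX1 did not overlap between ATO and control. It was 0.582, 0.670 and 0.734 in ATO replicates 1 to 3 and 0.470 and 0.506 in control replicates 1 and 2. Every ATO library was above both controls. The ratios SOD1 over CAT, SOD1 over GPX1 and GPX2 over GPX1 overlapped between ATO and control in each line. The levels of 20.2% of all genes were apart in BxPC-3, and how often a ratio of 2 genes is apart was not computed. In AsPC-1 it was 1.13, 1.31 and 1.04 in ATO replicates and 0.941, 1.07 and 0.916 in control replicates, with a mean of 1.16 ± 0.136 in ATO tumors and 0.975 ± 0.0809 in control tumors (SD, n = 3 each), and the groups overlapped through ATO replicate 3 and control replicate 2. In the library labelled BxPC-3 control 3 the ratio was 0.967, above the 3 BxPC-3 ATO libraries.

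Spread between replicates differed by gene and group. For GPX2 the coefficient of variation of FPKM was 40.7% in AsPC-1 ATO libraries and 14.5% in AsPC-1 control libraries, and 31.3% in BxPC-3 ATO libraries and 6.58% in 2 BxPC-3 control libraries. For SOD1 it stayed between 9.17% and 12.1% in all 4 groups. Under ATO, GPX2 varied more between replicates than GPX1, GPX4, CAT and SOD1 in each line, and this difference in spread was not tested.

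The gene whose level followed each of the 6 most closely was sought among 5359 genes of at least 5 FPKM on average in each line, by Pearson's r of log2(FPKM + 1) over the 11 libraries after the mean of each line was subtracted. The highest r was 0.969 for CAT with ENSG00000148154 and 0.968 for GPX1 with ENSG00000103502, and it was 0.915 for GPX2, 0.918 for GPX4, 0.920 for GPX3 and 0.925 for SOD1. These libraries share their scaling and depth between genes, and the highest of 5359 values is high by choice, so the values are a description only.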

How the data were processed

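The 12 RNA libraries were made from tumors, per the labels' protocols with the SMARTer mRNA-Seq kit on total RNA. The authors deposited 1 table per line that states no unit. These deposited values were read as FPKM, because a deposited value times a whole gene length, divided by 1 constant per library, gave a whole number of reads. The submitters' processing notes name the builds GRCm38, mm10 and hg38 with no role. The aligner, the annotation, strand, the counting of shared reads and whether reads or read pairs were counted are not stated in the sources. Reads were recovered in Python 3.11.15 using pandas 2.3.3 and numpy 2.4.6, and 99.88% of values came out whole within 0.05 reads. They summed to 72.6% to 118% of the total that the constants imply. This part was 105% to 118% in AsPC-1 ATO libraries and 86.3% to 88.7% in AsPC-1 control libraries. In BxPC-3 it was 72.6% to 79.3% in ATO libraries, 76.7% and 84.5% in the controls kept and 98.1% in the library left out. The deposited scale in AsPC-1 thus differed between ATO and control. A space within 1 value was removed.

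The log2(FPKM + 1) values were tested with limma 3.58.1, run in R 4.3.3 with a trended eBayes step, where a gene reached 1 FPKM in no fewer than 3 of the libraries fitted, with Benjamini-Hochberg adjustment over all genes tested and a threshold of 0.05. Such fold changes understate the change of low genes. ATO was tested within each line alone. The lines and the interaction were tested in 1 model of 11 libraries over the 23445 genes in both tables. The planned tests had foreseen counts or normalized values, and those for normalized values were used. Voom was run on recovered reads, scaled by median-ratio size factors, where a gene reached 1 CPM in 3 libraries. Other alternatives were quantile normalization, a replicate block, no filter, at least 5 FPKM, a pseudocount of 0.1, no trend, 1 model of 11 libraries, the left-out library put back and each library left out. The block with voom, voom with the left-out library and the ratios within libraries were added after the data were seen. The procedures were tested on simulated data.

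The members and lists were chosen with earlier results of these data known. The 6 members are named by rule. For genes that follow them, the rule allowed at most 2 identifiers, since the files pair no names with identifiers. The member symbols came with the list of identifiers. Lists of other antioxidant genes and of cell type markers were not analysed here, and no human sequence was used here. The precision is limited by 2 or 3 libraries per group.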

Additional observations from a re-analysis of the deposited data

Results flagged for a closer look

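The library labelled BxPC-3 control 3 was outside the comparisons, and it stood above both other BxPC-3 control libraries in 3 of the 6 genes. SOD1 was at 82.5 FPKM in it, against 34.6 and 39.4 FPKM in control replicates 1 and 2. GPX4 was at 62.5 FPKM, against 38.0 and 37.4 FPKM. GPX3 was at 0.721 FPKM, against 0.564 and 0.641 FPKM. The same library stood below both other controls for GPX2, CAT and GPX1. GPX2 was at 11.6 FPKM against 61.0 and 55.6 FPKM, and CAT at 11.4 FPKM against 18.2 and 23.0 FPKM. GPX1 was at 64.6 FPKM against 80.9 and 73.8 FPKM.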

How the results depend on the processing

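The 4 genes called between the lines under ATO numbered 4 in every fit that left out a library, and 3 with voom and a replicate block or voom with BxPC-3 control replicate 3, where GPX4 missed the threshold. In control tumors the count of 4 was 2 to 4 without single libraries, and 0 with BxPC-3 control replicate 3 in limma and 0 in voom. In AsPC-1 the count of members changed by ATO, 0, was 1 in voom with a replicate block, where GPX2 passed (-0.64, adjusted p = 0.0466, range over alternatives 0.0466 to 0.869). The block with limma left it at 0 members. The deviations of same-numbered AsPC-1 libraries correlated at r = 0.331, 0.200 and 0.0814, and those of different-numbered ones at r from -0.334 to 0.214. These values do not settle whether the numbers pair the libraries, and the main fits took them as unpaired. BxPC-3, with 2 controls, could not decide it. Over all genes, the AsPC-1 count of 0 was 1193 with the replicate block, 3432 with voom and the block, 19 with voom, 77 with at least 5 FPKM, 1 with quantile normalization and 1 without ATO replicate 1. Without BxPC-3 ATO replicate 1, 6 BxPC-3 genes and 493 interaction terms passed, and without BxPC-3 control replicate 2, 6 interaction terms. The cause was not tested.

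Signs turned only for log2 fold changes that did not pass. In AsPC-1, GPX1 was 0.034 with quantile normalization and -0.21 to 0.038 without single libraries, and GPX4 was -0.018 in voom with or without the block. In BxPC-3, CAT was 0.24 in limma and 0.28 in voom with control replicate 3. Without single BxPC-3 libraries CAT ran from -0.19 to 0.13, GPX2 from -0.050 to 0.35 and SOD1 from -0.17 to 0.0081. The interaction of GPX1 was -0.086 in voom, -0.22 in voom with control replicate 3, -0.13 in voom with the block and -0.031 to 0.22 without single libraries. That of GPX4 was 0.0061 with quantile normalization, 0.17 with control replicate 3 and -0.24 to 0.072 without single libraries. That of SOD1 was 0.057 with quantile normalization, 0.35 in limma and 0.12 in voom with control replicate 3, and -0.12 to 0.068 without single libraries. GPX3, with 18 to 51 reads, is the gene that depth limits most.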
